A study of Mus musculus with 6 samples.

Results

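The 10 genes described here are phosphatases, feedback inhibitors and transcriptional targets of the ERK pathway: the dual-specificity phosphatases Dusp9, Dusp4 and Dusp6, the Sprouty proteins Spry2 and Spry4, the Spred proteins Spred1 and Spred2, the ETS transcription factors Etv4 and Etv5, and the immediate-early gene Egr1. They were chosen by name. All 10 had at least 1 probe set that the platform annotation gives to a single gene, 30 probe sets in all, out of 18193 genes measured with 34945 such probe sets. Each gene was represented by its probe set with the highest mean over the 6 arrays, and its level is a log2 value made with RMA, a method that corrects, normalizes and summarises array probes. Levels of different genes are not set against each other, because probe sets differ in brightness for reasons other than RNA amount.

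RNA was compared between 3 haploid and 3 diploid mouse embryonic stem (ES) cell samples, with 1 array each. The haploid samples were the lines HAP1 at passage 24 and HAP2 at passage 21, both of F1 CBAxB6 strain, and HTG1 at passage 11, labelled mixed transgenic. The diploid samples were male and named only by a replicate number, diploid 1 and diploid 2 of strain 129Sv and diploid 3 of strain 129. The sources used here give neither the diploid samples' passage nor the transgene of HTG1 nor how many cells of the haploid cultures were still haploid. All 6 samples grew in 2i medium, which holds an inhibitor of MEK, the kinase directly above ERK, and an inhibitor of GSK3, and RNA was taken on day 2 after passaging. Every level below was therefore measured with a MEK inhibitor in the medium, and no culture without it is part of the comparison. Male diploid cells hold 1 X chromosome for 2 sets of autosomes, whereas haploid cells with an X hold 1 for 1. Strain, ploidy and the number of X chromosomes for each set of autosomes differed together between the groups, and their effects cannot be told apart. In such bulk samples, fewer cells of a type and less RNA per cell cannot be told apart either. The design text calls the arrays of a group biological triplicates, but nothing says that the diploid samples were separate lines, so p-values measure only the spread between these samples, which may be technical.

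In ES cells, fibroblast growth factor 4 made by the cells themselves activates Ras, Raf, MEK and ERK in turn, and ERK activity moves the cells out of naive pluripotency. ERK also switches on its own brakes: Dusp phosphatases remove phosphate from ERK, while Sprouty and Spred proteins act above it, at the level of receptors, Ras and Raf. Etv4, Etv5, Egr1, Dusp4, Dusp6, Spry2 and Spry4 are widely used as readouts of ERK activity because their RNA falls when MEK is blocked.

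The arrays had medians between 6.31 and 6.34 (log2). The ES cell markers Pou5f1 and Nanog stood above 13 on every array, and both passed as higher in the haploid lines, with none of the other 6 genes of their list passing. Without HTG1 neither passed (limma adjusted p = 0.0624 for Pou5f1 and 0.0522 for Nanog), and Utf1 passed as lower, by -0.82 (log2; limma adjusted p = 0.0381). With chromosome shifts subtracted 1 of the 8 was higher, when 1136 of all genes were higher and 1605 lower. Of 8 fibroblast markers 1 passed, Col1a2, which was 6.16-fold lower in the haploid lines (limma adjusted p = 0.00326). For 5 of the 8 every haploid value lay below every diploid one. Over all genes 7.92% passed as higher and 6.96% as lower, and 20.2% had haploid values all below the diploid ones. The summed linear level of the 8 fibroblast markers was 439 to 562 on haploid arrays, against 928 to 1660 on diploid arrays. Diploid 1 had the highest of these sums. For 2 of the 8 the mean of the haploid lines was below 4.80, the smallest lower quartile of any array, and none is at 0. Beta-actin probe sets at the 3' end were brighter than those at the 5' end, by 0.18 to 0.24 (log2) on haploid arrays and 0.34 to 0.46 on diploid arrays. A wider gap, as on the diploid arrays, can be a sign of less intact RNA. Of 7 primitive endoderm and 5 primed epiblast markers none passed, with summed linear levels of 398 to 436 and 1870 to 2990 on haploid arrays, against 380 to 461 and 1770 to 2780 on diploid arrays. Of 7 trophoblast markers 1 passed, Gata3, which was 2.63-fold higher (limma adjusted p = 0.0185) but dim, at 4.46 to 5.22 on diploid arrays. The sums of the 7 were 2010 to 3150 on haploid arrays, against 1640 to 2350 on diploid arrays. These sums mostly follow the brightest marker, Tfap2c. It stood at 10.45 to 11.14 on haploid and 10.05 to 10.58 on diploid arrays and did not pass (limma adjusted p = 0.149). The part of these marker levels and of RNA integrity in the differences below was not tested.

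Of the 10 genes, Dusp9 was higher and Spred1 and Spred2 were lower in the haploid lines, and the other 7 did not pass. Genes were tested with limma over all 18193 genes, two-sided, at a Benjamini-Hochberg adjusted p of 0.05. By this test 14.9% of all genes passed, 7.92% as higher and 6.96% as lower. The median difference of the 10 genes was -0.51 (log2, haploid minus diploid), against -0.03 over all genes. The 3 haploid and 3 diploid values did not overlap for 6 of the 10 genes, against 37.9% of all genes. In 2 of the 6 the haploid values lay above, against 17.7% of all genes, and in 4 below, against 20.2% of all genes.

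**Figure D1:**
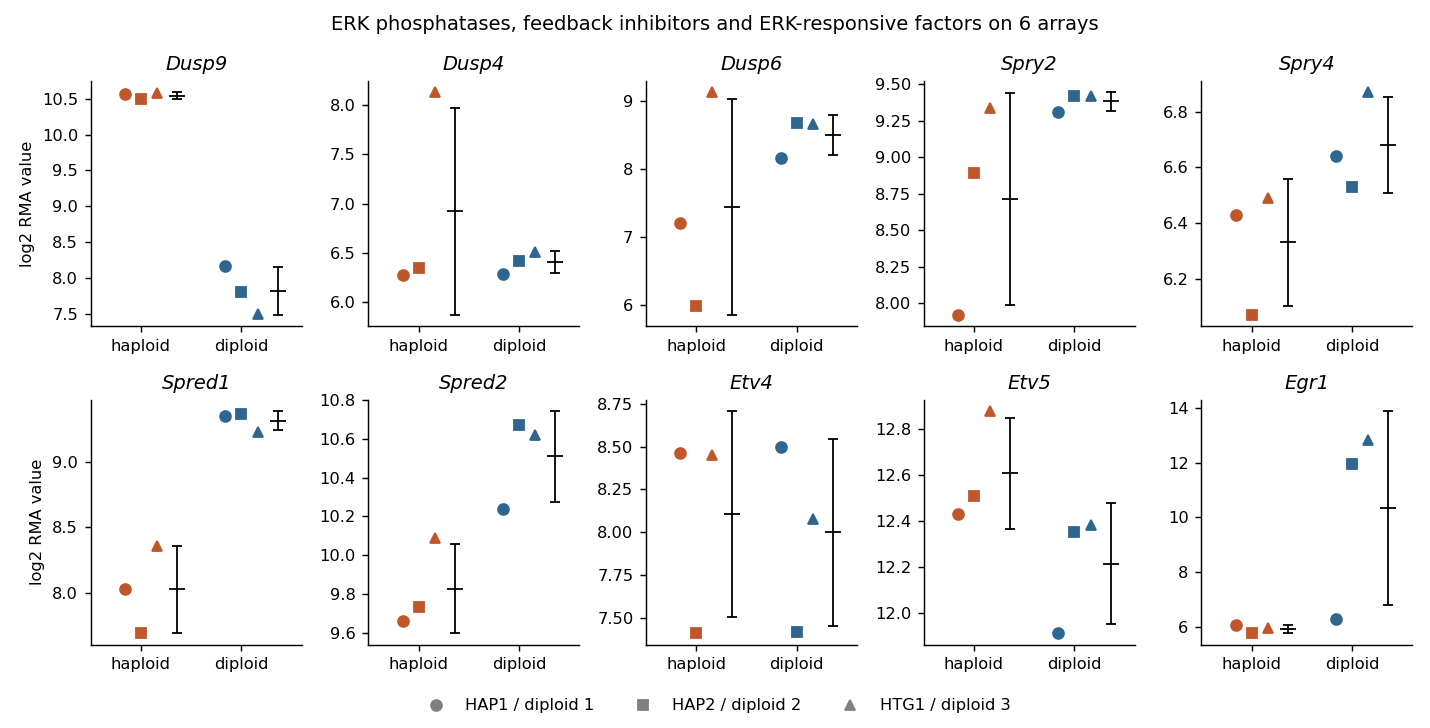
Log2 RMA values of the 10 genes on the 6 arrays, with the 3 haploid lines in orange to the left of the 3 diploid samples in blue; marker shapes name the arrays and pair nothing, and the black bars give mean ± SD (n = 3). Dusp9 and Spred1 separate the groups with little spread, Dusp4 and Dusp6 spread widely among the haploid lines, and Egr1 spreads from 6.28 to 12.81 among the diploid samples.

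Among the phosphatases, Dusp9 separated the groups most clearly. Dusp9, also called MKP-4, is an X-linked phosphatase of the cytoplasm that acts mainly on ERK, and in mouse ES cells it is known as a gene that limits ERK activity downstream of BMP signals. Its level was 10.56 in HAP1, 10.49 in HAP2 and 10.58 in HTG1, against 8.17, 7.80 and 7.50 in diploid 1, 2 and 3. The haploid lines were nearly equal and all far above the diploid samples. The difference of 2.72 ± 0.17 (log2 ± SE over 3 arrays each) corresponds to 6.58-fold higher (limma adjusted p = 0.000876). All 3 probe sets of Dusp9 were higher, by 1.83 to 2.72 (log2).

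Dusp9 lies on the X chromosome, whose genes were shifted as a whole: the median difference of 297 X-linked genes above the median level was 0.77 (log2). The parts of X chromosome number, ploidy and strain in that shift cannot be told apart. With that shift subtracted, Dusp9 still differed by 1.95 (limma adjusted p = 0.00254). Counted from the highest, its difference ranked 4 among 617 X-linked genes and 24 among all 18193 genes. It passed without any 1 of the 6 arrays, with differences of 2.56 to 2.89 (log2).

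Dusp6, or MKP-3, is a cytoplasmic phosphatase specific to ERK whose RNA is itself induced by ERK. Its level was 7.20 in HAP1, 5.98 in HAP2 and 9.13 in HTG1, against 8.16, 8.68 and 8.66 in diploid 1, 2 and 3. HAP1 and HAP2 were below every diploid sample, whereas HTG1 was above all of them. The haploid lines spanned 3.15 on the log2 scale and the diploid samples 0.51. The difference between the groups was -1.06 ± 0.71 (log2, SE; limma adjusted p = 0.348). Without HTG1 it was -1.91 ± 0.36 and passed (limma adjusted p = 0.0263). Without any other 1 of the arrays it did not pass (limma adjusted p = 0.381 to 0.744), and without HAP2 it was -0.33 (log2).

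Dusp4, or MKP-2, is a nuclear phosphatase of ERK and other MAP kinases. Its level was 6.28 in HAP1, 6.35 in HAP2 and 8.13 in HTG1, against 6.29, 6.42 and 6.51 in diploid 1, 2 and 3. HTG1 alone stood high, and the other 5 arrays lay within a narrow range. The difference between the groups was 0.51 ± 0.46 (log2, SE; limma adjusted p = 0.49), and -0.09 without HTG1.

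Both Spred genes were lower in the haploid lines. Spred1 and Spred2 encode membrane-bound inhibitors that keep Raf from being activated by Ras, and Spred1 brings the Ras-inactivating protein neurofibromin to the membrane. Spred1 stood at 8.03 in HAP1, 7.69 in HAP2 and 8.36 in HTG1, against 9.35, 9.37 and 9.23 in diploid 1, 2 and 3. Every haploid line was below every diploid sample, with HAP2 the lowest. Spred1 was 2.45-fold lower, a difference of -1.29 ± 0.17 (log2 ± SE over 3 arrays each, adjusted p = 0.00539 by limma), and it passed without any 1 of the arrays. All 8 of its probe sets had haploid values below the diploid ones, by -0.50 to -1.60 (log2), and 5 of the 8 passed over all probe sets.

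Spred2 stood at 9.66 in HAP1, 9.73 in HAP2 and 10.09 in HTG1, against 10.24, 10.67 and 10.62 in diploid 1, 2 and 3. The groups did not overlap, although HTG1 and diploid 1 came close to each other. Spred2 was 1.61-fold lower, a difference of -0.68 ± 0.17 (log2 ± SE over 3 arrays each, adjusted p = 0.0359 by limma). The call did not hold without HAP1, HAP2, diploid 2 or diploid 3 (limma adjusted p = 0.0836 to 0.127). It lies on chromosome 11, whose 792 genes above the median level had a median difference of -0.27 (log2), and with that shift subtracted Spred2 differed by -0.42 (limma adjusted p = 0.129). Its 5 probe sets differed by -1.12 to 0.19, and 2 of them passed, both as lower. The mean of the 5 differed by -0.38 and did not pass (limma adjusted p = 0.0637).

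The Sprouty genes had lower haploid means but did not pass. Spry2 and Spry4 encode inhibitors that are induced by growth factor signals and block the path to Ras and Raf. Spry2 stood at 7.92 in HAP1, 8.89 in HAP2 and 9.34 in HTG1, against 9.31, 9.42 and 9.42 in diploid 1, 2 and 3. HAP1 was far below the diploid samples and HTG1 was level with diploid 1. The difference was -0.67 ± 0.33 (log2, SE; limma adjusted p = 0.215). The other probe set of Spry2 told the lines apart less and the groups more: it gave 7.16, 6.97 and 7.07 in HAP1, HAP2 and HTG1, against 7.87, 8.24 and 8.14 in diploid 1, 2 and 3. Its difference of -1.02 ± 0.12 (log2, SE) passed over all probe sets (limma adjusted p = 0.00504), and so did the mean of both probe sets, at -0.84 (limma adjusted p = 0.0225).

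Spry4 stood at 6.43 in HAP1, 6.07 in HAP2 and 6.49 in HTG1, against 6.64, 6.53 and 6.87 in diploid 1, 2 and 3. The haploid values were all below the diploid ones, but only by a little, and the difference was -0.35 ± 0.15 (log2, SE; limma adjusted p = 0.164). Of its 4 probe sets 1 passed, a dim one whose haploid mean was 3.72, and the 4 differed by -0.99 to 0.05 (log2).

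**Figure D2:**
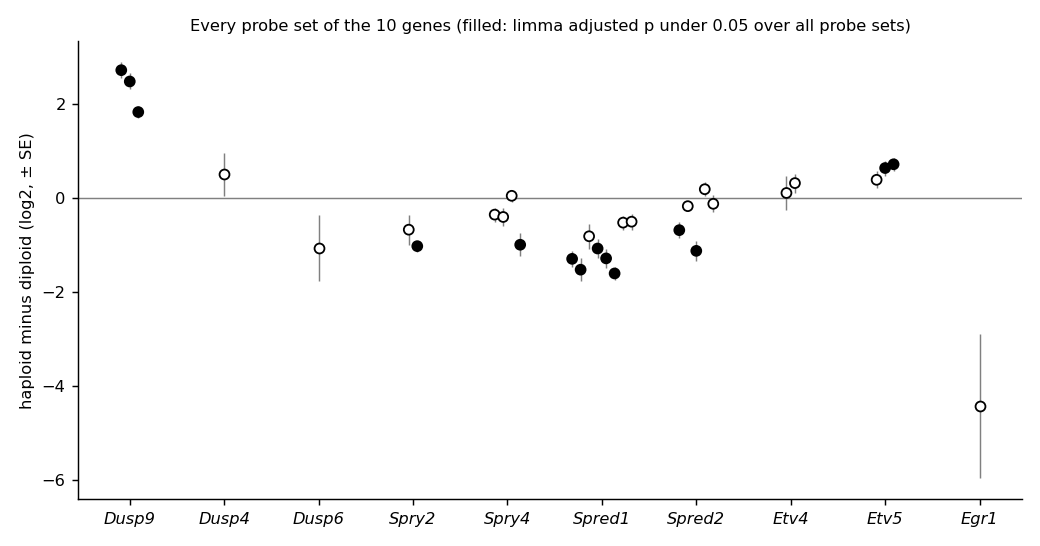
Haploid minus diploid difference (log2, vertical axis, bars ± SE) of each of the 30 probe sets of the 10 genes, brightest at the left of each gene; filled points had a limma adjusted p under 0.05 over all probe sets. The 3 probe sets of Dusp9 are all high, the 8 of Spred1 are all below 0, and those of Spred2 and Spry4 fall on both sides of 0.

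The DNA before the start of 4 of these genes is shown because Spred1, Spred2, Dusp6 and Spry2 all stood lower in HAP1 and HAP2 than in every diploid sample. RefSeq promoter windows (assembly GRCm38.p6) matched 5 of the 10 genes by symbol. The fifth was Etv5, which did not stand lower and is not shown. Spry4 and Egr1 also stood lower in HAP1 and HAP2 than in every diploid sample, but no window matched them. Each line gives the 250 bases before the annotated start in the direction of the gene, and capitals mark CGGAAG on either strand (written CTTCCG when it lies on the opposite one), a form of the core that ETS factors such as Etv4 and Etv5 bind.
Spred1, chr2:117120821-117121070, + strand: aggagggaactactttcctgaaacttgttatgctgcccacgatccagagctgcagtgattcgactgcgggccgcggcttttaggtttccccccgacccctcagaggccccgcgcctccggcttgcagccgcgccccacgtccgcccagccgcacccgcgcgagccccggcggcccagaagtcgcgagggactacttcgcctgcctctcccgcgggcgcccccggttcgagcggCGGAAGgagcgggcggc
Spred2, chr11:19924192-19924441, + strand: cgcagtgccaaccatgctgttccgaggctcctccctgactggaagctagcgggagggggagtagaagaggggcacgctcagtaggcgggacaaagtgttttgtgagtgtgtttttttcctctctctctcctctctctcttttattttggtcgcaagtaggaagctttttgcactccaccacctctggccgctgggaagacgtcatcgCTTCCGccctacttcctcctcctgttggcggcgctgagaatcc
Dusp6, chr10:99262981-99263230, + strand: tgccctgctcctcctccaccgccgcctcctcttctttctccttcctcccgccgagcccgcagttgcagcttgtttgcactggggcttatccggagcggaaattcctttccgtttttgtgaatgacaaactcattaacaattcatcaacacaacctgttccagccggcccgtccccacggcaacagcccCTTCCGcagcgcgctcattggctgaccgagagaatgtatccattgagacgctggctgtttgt
Spry2, chr14:105896820-105897069, - strand: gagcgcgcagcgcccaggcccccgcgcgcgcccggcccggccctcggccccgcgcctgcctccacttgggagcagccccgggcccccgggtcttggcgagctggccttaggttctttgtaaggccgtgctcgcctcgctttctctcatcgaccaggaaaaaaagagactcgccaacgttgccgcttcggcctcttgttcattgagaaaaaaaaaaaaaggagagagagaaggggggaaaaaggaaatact

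CGGAAG was found 1 time each before Spred1, Spred2 and Dusp6 and not before Spry2. Of all 32851 RefSeq promoter windows of this length, 13.6% held it. Neither TGANTCA, the site of AP-1 factors such as Fos and Jun, nor the CArG box, the site of serum response factor, was found in the 4 windows on either strand. They were found in 6.75% and 1.47% of all windows. A match is a description of these letters and not a measured binding site. The 4 windows were chosen by the levels of their genes in these data, and all windows were not matched to them for GC content. The shares of all windows therefore give no test of enrichment. GC content of the 4 windows was 70.8% for Spred1, 56.0% for Spred2, 56.4% for Dusp6 and 62.4% for Spry2.

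Neither ETS factor passed. Etv5, which in ES cells is a target of fibroblast growth factor signalling, stood at 12.43 in HAP1, 12.51 in HAP2 and 12.88 in HTG1, against 11.91, 12.35 and 12.38 in diploid 1, 2 and 3. The haploid values were above the diploid ones by a narrow margin between HAP1 and diploid 3. The difference was 0.39 ± 0.18 (log2, SE; limma adjusted p = 0.178). The other 2 probe sets of Etv5 both passed as higher, at 0.64 (limma adjusted p = 0.0492) and 0.72 (limma adjusted p = 0.0197), and the mean of the 3 passed at 0.59 (limma adjusted p = 0.0478).

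Etv4, a close relative of Etv5, stood at 8.46 in HAP1, 7.41 in HAP2 and 8.45 in HTG1, against 8.50, 7.42 and 8.08 in diploid 1, 2 and 3. The groups covered nearly the same range, and HAP2 and diploid 2 were the low arrays of their groups. The difference was 0.11 ± 0.36 (log2, SE; limma adjusted p = 0.866), and it turned to -0.18 without diploid 2.

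**Figure D3:**
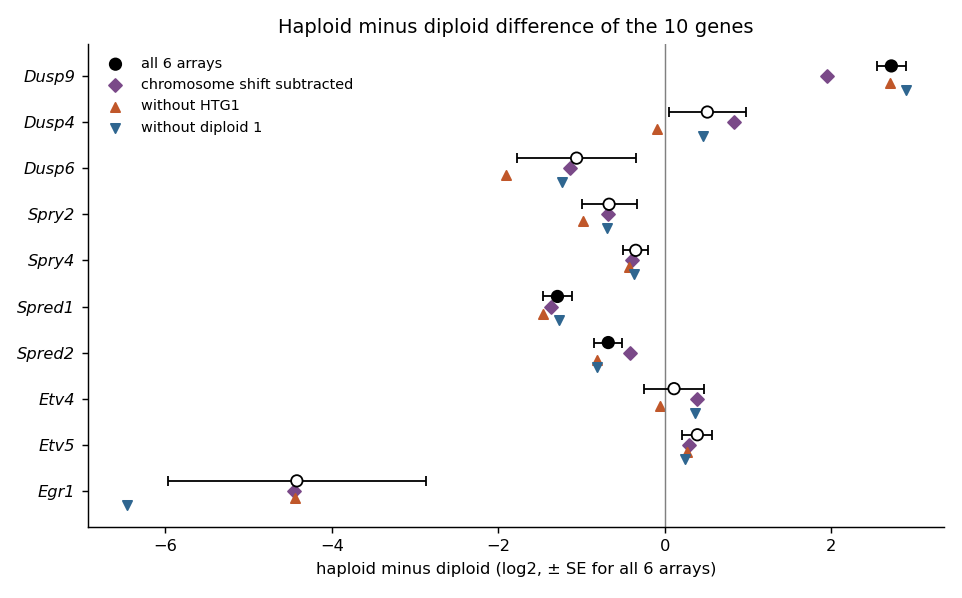
Haploid minus diploid difference (log2, horizontal axis) of the 10 genes with all 6 arrays (circles ± SE, filled where the limma adjusted p was under 0.05), with the median shift of the gene's chromosome subtracted, without HTG1 and without diploid 1. Dusp9 stays between 1.95 and 2.89 and Spred1 stays below -1, Dusp6 is at -1.91 without HTG1, and Egr1 is at -6.46 without diploid 1.

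Egr1 had the widest spread of any gene among the diploid samples. Egr1 encodes a zinc finger transcription factor whose RNA appears within minutes of a growth factor or stress signal, through ERK and serum response factor, and then fades. Its level was 6.06 in HAP1, 5.76 in HAP2 and 5.95 in HTG1, against 6.28, 11.96 and 12.81 in diploid 1, 2 and 3. Diploid 2 and diploid 3 were high, while diploid 1 was close to the 3 haploid lines. The diploid range of 6.53 (log2) ranked 1 among 18193 genes, and the haploid range was 0.31.

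The difference between haploid and diploid was -4.42 ± 1.55 for Egr1 (log2, SE; limma adjusted p = 0.101). The values did not overlap, but diploid 1 was close to HAP1. Without diploid 1 the difference was -6.46 ± 0.26 and passed (limma adjusted p = 0.00151), which then compares 3 haploid arrays with 2 diploid arrays. Without any other 1 of the arrays Egr1 did not pass (limma adjusted p = 0.161 to 0.266). Its difference was -3.62 without diploid 2 and -3.19 without diploid 3 (log2). Diploid 1 was also the array with the highest summed fibroblast markers, at 1660, and the part of this in the Egr1 level was not tested. Egr1 has 1 probe set here, so no second measurement on the arrays bears on it.

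Other immediate-early genes were set beside Egr1. Fos, the AP-1 subunit induced together with Egr1, stood at 7.72 in HAP1, 8.30 in HAP2 and 6.74 in HTG1, against 7.90, 10.54 and 10.67 in diploid 1, 2 and 3. As for Egr1, diploid 2 and diploid 3 were high. For Fos diploid 1 was within the haploid range, whereas for Egr1 it lay just above that range. In the gap between diploid 1 and the mean of diploid 2 and 3, Egr1 ranked 1 and Fos 2 among all genes, at -6.11 and -2.70 (log2). Egr2, a relative of Egr1, stood at 4.37, 4.43 and 4.12 in HAP1, HAP2 and HTG1, against 4.53, 6.44 and 5.58 in diploid 1, 2 and 3. Fosb, another AP-1 subunit, stood at 4.0, 3.98 and 4.09 in HAP1, HAP2 and HTG1, against 4.12, 4.80 and 4.62 in diploid 1, 2 and 3. For Egr2 and Fosb diploid 1 was the lowest diploid array and the haploid values lay below it, all at the dim end of the scale.

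None of Fos, Egr2 and Fosb passed on all arrays (limma adjusted p = 0.105 to 0.11). Without diploid 1 all 3 passed as lower in the haploid lines, Fos by -3.02, Egr2 by -1.70 and Fosb by -0.68 (log2; limma adjusted p = 0.0138 to 0.0165). Of 25 measured immediate-early and ERK-responsive genes outside the 10, 2 were higher and 2 lower on all arrays. The shares of all genes were 7.92% and 6.96%. Without diploid 1, 2 of the 25 were higher and 5 lower, when 1274 of all genes were higher and 1082 lower. Diploid 1 was the lowest diploid array for 14 of the 25 (56%), for 6 of the 10 genes described here and for 34% of all genes. It was also the lowest for 71.4% of the other dual-specificity phosphatases and 42.9% of the other feedback inhibitors. The share was 38.9% of the ligands, receptors and adaptors and 30.8% of the cascade kinases and Ras. In the marker lists it was 12.5% to 40%. All of these lists are short. Jun, the partner of Fos in AP-1, did not follow the group pattern of Fos. It stood at 7.82, 8.48 and 8.95 in HAP1, HAP2 and HTG1, against 6.89, 8.87 and 8.0 in diploid 1, 2 and 3.

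**Figure D4:**
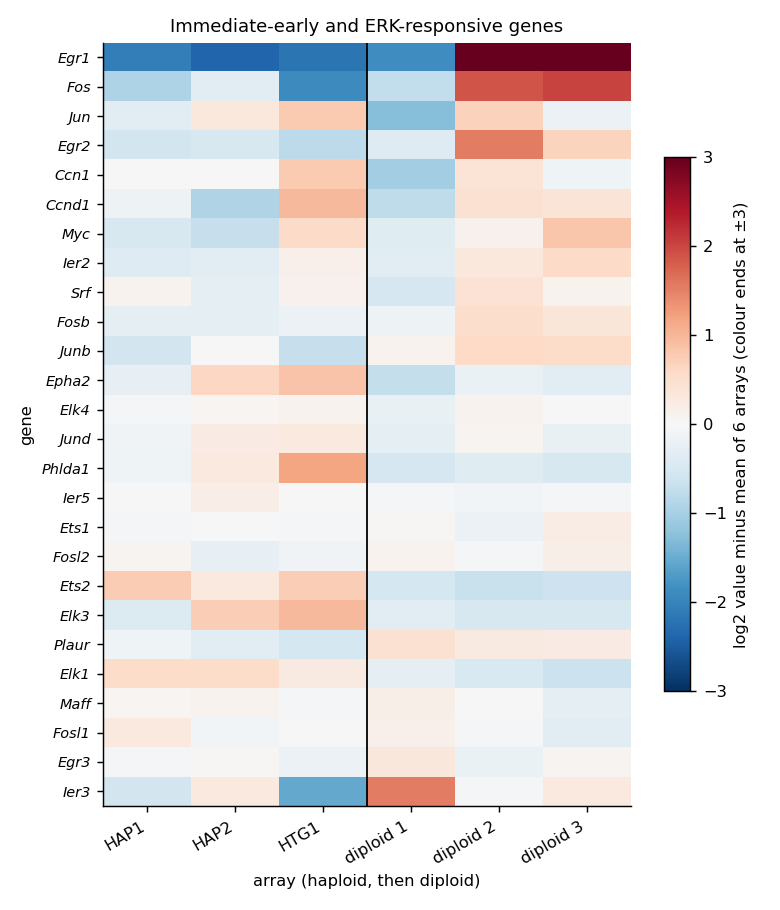
Egr1 and 25 other immediate-early or ERK-responsive genes (rows, ordered by the gap between diploid 1 and the mean of diploid 2 and 3) on the 6 arrays (columns, haploid lines left of diploid samples); colour is the log2 value minus the gene's mean over the 6 arrays and ends at ±3. Egr1 and Fos are high in diploid 2 and diploid 3 and low in the other 4 arrays.

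Of the 25, the 4 genes that passed on all arrays were Ets2, Elk1, Junb and Plaur. Ets2, an ETS factor phosphorylated by ERK, was 2.31-fold higher, a difference of 1.21 ± 0.14 (log2, SE; limma adjusted p = 0.00399). Elk1, the ETS factor through which ERK activates Egr1 and Fos, was 1.88-fold higher, but it is X-linked, and with the X shift subtracted it differed by 0.14 (limma adjusted p = 0.48). Junb, an AP-1 subunit, was 1.78-fold lower and Plaur, the urokinase receptor, 1.56-fold lower. Junb did not pass with the shift of chromosome 8 subtracted (-0.52, limma adjusted p = 0.145), nor without diploid 2 or 3, HAP1 or HTG1 (limma adjusted p = 0.101 to 0.147). Plaur did not pass without diploid 2 or 3 or HAP2 (limma adjusted p = 0.0577 to 0.061). The median difference of the 25 genes was -0.02 (log2).

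The haploid lines differed among themselves in these genes. HTG1 was the highest of the 3 haploid lines for 8 of the 10 genes, against 32.3% of all genes. It was also the highest for 57.1% of the other dual-specificity phosphatases, 57.1% of the other feedback inhibitors and 62.5% of the ES cell markers, so this lean was not limited to the 10 genes. The share was 48% of the other immediate-early and ERK-responsive genes and 50% of the fibroblast markers. It was 42.9% of the primitive endoderm markers and 40% of the primed epiblast markers. Other lists did not lean this way: 33.3% of the ligands, receptors and adaptors, 30.8% of the cascade kinases and Ras, and 14.3% of the trophoblast markers. All of these lists are short. HTG1 was set against HAP1 and HAP2 in a fit with 3 groups, in which the lone HTG1 array is assumed to vary like the others. By it 0.374% of all genes passed, and of the 10 genes only Dusp4 did, higher in HTG1 by 1.81 ± 0.15 (log2, SE; limma adjusted p = 0.0104). Without diploid 2 or diploid 3, which help to set the spread, its limma adjusted p was 0.0534 or 0.0536. A marker of primed epiblast, Otx2, was lower in HTG1 than in HAP1 and HAP2 in the same fit, by -3.06 ± 0.31 (log2, SE; limma adjusted p = 0.0206). Otx2 stood at 10.25 in HAP1, 9.55 in HAP2 and 6.84 in HTG1, and its part in the differences between the lines was not tested. Dusp6 differed by 2.54 ± 0.49 in the same direction and did not pass (limma adjusted p = 0.152), with HAP1 and HAP2 far from each other. Spry2 differed by 0.93 ± 0.36 and Spred1 by 0.50 ± 0.18 (log2, SE; limma adjusted p = 0.52 and 0.49). The other probe set of Spry2 differed by 0.00 between these lines. Dusp9 differed by 0.06 ± 0.27 and Egr1 by 0.04 ± 2.47 (log2, SE).

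Phosphatases and inhibitors outside the 10 genes did not pass in haploid against diploid on all 6 arrays. Of 7 other dual-specificity phosphatases of MAP kinases none was higher or lower (limma), with a median of 0.14 (log2), and at an unadjusted p of 0.05 there was none either. The stress-induced Dusp1 stood at 10.41, 10.75 and 11.61 in HAP1, HAP2 and HTG1, against 10.42, 10.89 and 10.72 in diploid 1, 2 and 3. Dusp16, a phosphatase mainly of JNK and p38, differed by -0.01 ± 0.18 (log2, SE; limma adjusted p = 0.983). Of 14 other inhibitors none passed (limma), with a median of 0.00, and 3 had an unadjusted p under 0.05: Errfi1, Dok2 and Nf1. The share of all genes with such an unadjusted p is not given here, so these counts have nothing to be set against. Nf1, the Ras-inactivating partner of Spred1, stood at 6.31, 6.24 and 6.62 in HAP1, HAP2 and HTG1, against 6.80, 6.85 and 6.66 in diploid 1, 2 and 3 (limma adjusted p = 0.0903). Without HTG1, Nf1 passed as lower, by -0.49 (log2; limma adjusted p = 0.0412). Spry3, an X-linked Sprouty gene, was dim on every array, at 4.03 to 4.41, and differed by 0.11 (log2, limma adjusted p = 0.616). With the X shift subtracted it passed as lower, by -0.66 (log2, limma adjusted p = 0.0196). That shift was taken from genes above the median level, so this call comes from the subtraction and shows no drop in RNA. These 4 were named after their values were seen. The 2 inhibitors with the highest mean, the Raf-binding protein Pebp1 and the Ras-inactivating protein Rasa1, differed by 0.10 ± 0.12 and -0.11 ± 0.11 (log2, SE; limma adjusted p = 0.623 and 0.515).

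Upstream of ERK, a few genes passed in each direction. Of 18 measured ligands, receptors and adaptors 3 were higher and 1 lower, against 7.92% and 6.96% of all genes. Their median was 0.06 (log2). Sos2, an exchange factor that loads Ras, was 2.20-fold higher, a difference of 1.13 ± 0.19 (log2, SE; limma adjusted p = 0.0105). The adaptors Frs3 and Shc1 were 1.50-fold and 1.44-fold higher. Frs3 did not pass with the shift of its chromosome subtracted (limma adjusted p = 0.0606) nor without diploid 2 or 3, HAP2 or HTG1 (0.0794 to 0.129), and Shc1 did not pass after quantile normalization (limma adjusted p = 0.0723), with array medians aligned (0.054) or without diploid 1, 2 or 3, HAP1 or HTG1 (0.0575 to 0.131). Gab1, a docking protein, was 1.78-fold lower (limma adjusted p = 0.00423), and with the shift of chromosome 8 subtracted it differed by -0.51 and still passed (limma adjusted p = 0.0194). Fgf4, the ligand itself, stood at 12.24, 12.50 and 12.35 in HAP1, HAP2 and HTG1, against 12.09, 11.91 and 11.89 in diploid 1, 2 and 3, and just missed the threshold (limma adjusted p = 0.0528).

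Of 13 measured cascade kinases, Ras proteins and their partners 2 were higher and 1 lower, against 7.92% and 6.96% of all genes. Their median was 0.18 (log2). Araf, an X-linked Raf kinase, was 2.34-fold higher, and with the X shift subtracted it differed by 0.46 (limma adjusted p = 0.0376). Without probe sets that may match several transcripts Araf differed by 0.48 (log2, limma adjusted p = 0.021). Rras2, a Ras relative, was 1.57-fold higher (limma adjusted p = 0.00599). Nras was 1.30-fold lower (limma adjusted p = 0.0452), a call that was lost without any 1 of the arrays (limma adjusted p = 0.0744 to 0.124). The targets of the medium's inhibitor, the MEK kinases Map2k1 and Map2k2, differed by 0.26 ± 0.10 and 0.21 ± 0.09 (log2, SE; limma adjusted p = 0.121 and 0.176).

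**Figure D5:**
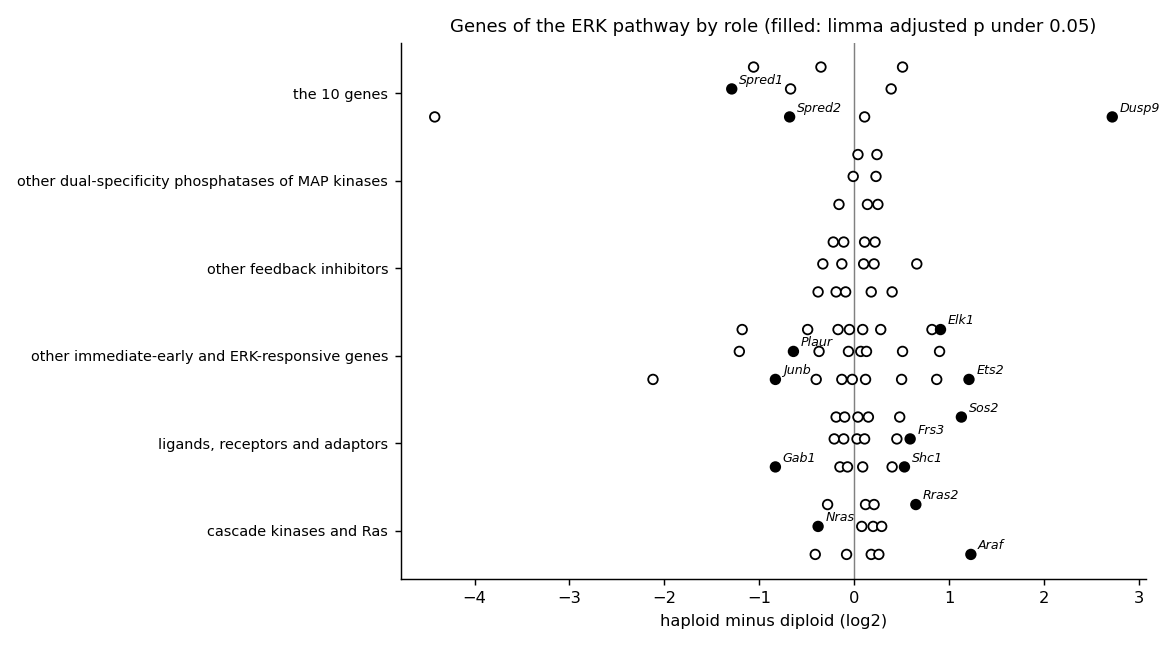
Haploid minus diploid difference (log2, horizontal axis) of the 10 genes and of other ERK pathway genes by role (rows; height within a row has no meaning); filled, named points had a limma adjusted p under 0.05 over all 18193 genes. Dusp9 at 2.72 is the highest of all genes shown, and no other phosphatase passed.

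For the 3 genes that passed, the genes with the most similar course over the 6 arrays were listed among genes above the median level. For Dusp9 they were 5031439G07Rik (Pearson's r = 0.9997), Prr3 (0.9965) and Pdzd11 (0.9965). For Spred1 they were Eno3 (0.9991), Chtf8 (0.9982) and Rfwd3 (0.9977). For Spred2 they were Nlk (0.9985), Med1 (0.9959) and Gga2 (0.9957). With 6 arrays in 2 groups, any gene that separates the groups has a high r with any other, so these values describe the arrays only.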

How the data were processed

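The authors deposited log2 values, 1 for each probe set on each array. They used RMA, per the submitters' processing notes; software, version and settings are not given in the sources used here. Values ran from 2.62 to 15.16. RMA sets the arrays to a common distribution, so a change in total RNA per cell cannot be seen, and it compresses large differences of dim genes. Of 45101 probe sets, 64 controls were left out, 34945 had 1 gene symbol, 932 several and 9160 none; symbols are those of GEO's platform annotation, and chromosomes come from RefSeq (GRCm38.p6) for 34741 probe sets. A gene was its probe set with the highest mean, which gave 18193 genes. Groups came from the labels.

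Haploid and diploid arrays were set against each other with lmFit and eBayes of limma 3.58.1 (R 4.3.3), without covariate or filter. The script was checked on simulated data. SE is limma's moderated standard error. Alternatives were a repeated quantile normalization, arrays aligned on their medians, only genes above the median level, the mean or each of a gene's probe sets, omission of probe sets whose names end in _a_at, _s_at or _x_at, trend and robust settings, array weights, subtraction of each chromosome's median difference, a 2-fold threshold, and each array left out. Precision is limited by having 3 arrays a group. The 10 genes, the lists and the tests were chosen with earlier results of these data known. Named were the 10 genes, up to 4 members of each pathway list that passed and the 2 brightest where none passed. Also named were the cell type markers that passed and 3 similar genes for each of the 10 that passed. Fos, Egr2, Fosb, Jun, Nf1, Errfi1, Dok2, Spry3, Otx2, Utf1, Gata3, Col1a2, Tfap2c, Fgf4, Map2k1 and Map2k2 were named after their values were seen. Listed genes without a probe set of their own were not analysed here.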

Additional observations from a re-analysis of the deposited data

How the results depend on the processing

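Over 15 alternatives each, Dusp9 (limma adjusted p up to 0.0103) and Spred1 (up to 0.0294) passed in every fit of genes, while Spred2 lost its call in 7. On all arrays 1 of the 10 genes passed as higher. With the probe sets of a gene averaged 2 did, Dusp9 and Etv5, while Spry2 passed as lower and Spred2 lost its call. The number lower was 2, and 1 with chromosome shifts subtracted, when 1605 of all genes were lower and 1136 higher. It was 1 with a 2-fold change required and 1 to 3 with an array left out. In HTG1 against HAP1 and HAP2 the number higher was 1, and 0 to 2 with an array left out. The 2 came without HAP1 or HAP2, when 1 array stood against 1, so neither says anything of the lines. Directions turned for Dusp4 (-0.09 to 0.83, log2, with an array left out), Etv4 (-0.18 to 0.46), Etv4 and Egr1 in HTG1 against HAP1 and HAP2 (-0.01 to 1.03 and -0.11 to 0.20), 1 of 4 probe sets of Spry4 (0.05) and 1 of 5 of Spred2 (0.19). Egr1 passed with array weights (-5.69, limma adjusted p = 0.0183). Over all genes 1441 were higher and 1266 lower, against 1225 and 1680 with array medians aligned, 414 and 240 at 2-fold, and 571 to 1395 and 399 to 1082 with an array left out; in HTG1 against HAP1 and HAP2 44 were higher and 24 lower, against 21 to 81 and 4 to 42. The cause of these changes was not tested. No paired analysis was possible because the haploid titles name lines and give no replicate number that the diploid samples share.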
